A study of Homo sapiens with 6 samples.

Results

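The 9 genes described here encode DNA helicases and helicase-like enzymes of replication and repair: PIF1, the RecQ helicases BLM, WRN, RECQL, RECQL4 and RECQL5, and RTEL1, DNA2 and HELLS. They were picked by symbol, and all 9 were found among the 28565 genes of the deposited count table. PIF1 was put forward because its counts at 24 h were among the lowest relative to 0 h, and the others because of their kind, so the 24 h against 0 h values of the 9 genes are given as a description and support nothing. RTEL1 and DNA2 are of other helicase families than PIF1 and RecQ, and HELLS is an SNF2-type chromatin remodeller. The libraries come from HK-2, a human cell line grown from the epithelium of kidney proximal tubules and immortalised with papillomavirus oncogenes that disable the p53 and RB proteins. All 6 libraries carry the same overexpression plasmid for a long noncoding RNA, called LncR2 in the sample titles, put in with a lipid reagent and followed by 48 h of incubation. Of these, 3 libraries had 0 h and 3 had 24 h of cisplatin, a platinum drug that crosslinks DNA, at a dose that is not given in the sources used here. All the 24 h libraries and none of the 0 h libraries had the drug, so cisplatin and time after transfection cannot be told apart. Cells with the control plasmid were not analysed here, so nothing here measures the plasmid itself.

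Helicases use ATP to move along DNA and pull its strands apart. PIF1 works at G-rich folded DNA, on telomeres, in mitochondria and in the last steps of Okazaki fragment synthesis, and BLM and WRN unwind recombination intermediates, stalled forks and G-quadruplexes, with inherited loss of either causing genome instability and cancer. RECQL and RECQL5 act on reversed forks and on forks that meet transcription, RECQL4 in the start of replication, RTEL1 on telomeric loops, DNA2 as a nuclease-helicase that trims flaps and resects broken ends, and HELLS in the upkeep of DNA methylation. Cisplatin crosslinks stall forks, the setting in which several of these enzymes are needed.

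The sequences before the start sites of PIF1 and HELLS are shown because they differ in the letters that cell-cycle factors are known to read, and because PIF1 had the largest change of the 9 genes and HELLS the highest level. The RefSeq promoter table (GRCh38.p14, windows of 250 bases before to 50 after a start) held 6 of the 9 genes in 7 windows, and the 250 bases before the start are printed. Capitals mark exact matches on either strand. Those in PIF1 are TTTGAA, the core of the cell cycle gene homology region (CHR), and ATTGG, the reverse complement of the CCAAT box of NF-Y. Those in HELLS are the E2F letters TTTCCCGC, the E2F letters TTTGGCGC as their reverse complement GCGCCAAA, and CCAAT.
PIF1 (chr15:64825648-64825897, minus strand): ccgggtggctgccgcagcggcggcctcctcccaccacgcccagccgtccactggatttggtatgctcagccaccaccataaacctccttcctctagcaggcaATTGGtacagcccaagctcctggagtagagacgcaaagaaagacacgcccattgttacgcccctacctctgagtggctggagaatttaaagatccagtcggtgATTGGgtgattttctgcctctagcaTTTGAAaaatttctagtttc
HELLS (chr10:94545538-94545787, plus strand): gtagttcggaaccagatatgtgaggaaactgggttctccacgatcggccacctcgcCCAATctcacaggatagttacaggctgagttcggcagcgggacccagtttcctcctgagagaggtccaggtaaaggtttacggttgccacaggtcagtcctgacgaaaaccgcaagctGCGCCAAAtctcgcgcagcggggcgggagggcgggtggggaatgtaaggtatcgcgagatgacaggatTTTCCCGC

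In PIF1 the CHR letters began 20 bases before the RefSeq start, and the ATTGG matches began 45 and 148 bases before it. In HELLS the E2F letters began 8 and 76 bases before the start. Of 35116 windows of the same length in the table, 15.2% held TTTGAA, 16.4% held TTTGAA or the other CHR form searched, TTCGAA, and 34.6% held CCAAT, with CHR and CCAAT letters together in 6.38%. Any of the 4 E2F forms searched (TTTCCCGC, TTTGGCGC, TTTCGCGC and TTTGCCGC) was found in 3.31%, and 2 or more of the forms in 0.0854%. CHR letters were found in no member window but that of PIF1, and E2F letters in none but that of HELLS. BLM held CCAAT in 3 places, RECQL in 5 and RECQL5 in 1, while the 2 windows of RTEL1 held none of the letters searched. These are letter matches, not measured binding.

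The total count per library was 5028881 to 5844246 at 0 h and 6022268 to 7248754 at 24 h. Of 13389 genes tested with the quasi-likelihood fit of edgeR, 116 (0.866%) were higher and 278 (2.08%) lower at 24 h at a Benjamini-Hochberg adjusted p under 0.05, the threshold for every call here. DESeq2 called 0.957% higher and 1.63% lower. The 24 h libraries lay above all 0 h libraries in 10.9% of genes and below them in 11.7%. Library 0 h replicate 3 stood apart, at -31.6 on the second principal component against 8.67 and -1.43 for the other 0 h libraries. On the first component it was at 1.35, against -24.7 and -25.4 for the other 0 h libraries and 6.39, 18.5 and 23.9 for those of 24 h. Values without 0 h replicate 3 are therefore given where it matters. Of 10 epithelial markers, 9 passed the filter on low counts (KRT8, KRT18, CLDN1 and PAX8 among them), with a summed level of 2578 to 2690 CPM (counts scaled to 1 common library total) at 0 h and 2561 to 2623 at 24 h, and CDH1 had at most 1 count per library. Of 12 proximal tubule markers, 2 passed (GGT1 and MME), and LRP2, SLC22A6 and SLC22A8 were not in the count table. The summed markers of fibroblasts reached at most 20.6 CPM, those of leukocytes 3.56 and those of endothelium 0.712.

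Compared per length, in the FPKM values deposited by the authors, the 9 genes covered a wide range at 0 h. HELLS was highest, at 19.7 ± 1.90 FPKM (mean ± SD, n = 3 here and below), followed by RECQL at 15.4 ± 1.29, and the libraries of these genes did not overlap. DNA2 (4.87 ± 0.474) and RECQL4 (4.52 ± 0.902) came next and overlapped each other, as did BLM (2.95 ± 0.466) and WRN (2.46 ± 0.214). The lowest were RTEL1 (1.64 ± 0.327), PIF1 (1.61 ± 0.466) and RECQL5 (1.19 ± 0.285), and each of these overlapped its neighbour in the order. At 24 h the order by mean FPKM was HELLS (26.1 ± 2.18), RECQL (18.8 ± 2.98), RECQL4 (7.20 ± 0.966), DNA2 (5.88 ± 0.520), BLM (3.32 ± 0.554), RTEL1 (2.62 ± 0.289), WRN (2.57 ± 0.309), RECQL5 (1.26 ± 0.0153) and PIF1 (0.583 ± 0.136). There the libraries of RECQL4 overlapped those of DNA2, those of BLM overlapped those of RTEL1, and those of RTEL1 overlapped those of WRN. PIF1 moved from between RTEL1 and RECQL5 to below RECQL5, with no overlap with RECQL5 at 24 h. HELLS and RECQL together held most of the summed FPKM of the 9 genes, with shares of 36.2% ± 2.09 and 28.3% ± 1.41 at 0 h and 38.3% ± 2.40 and 27.4% ± 1.96 at 24 h. PIF1 held 2.99% ± 0.982 at 0 h and 0.852% ± 0.170 at 24 h.

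**Figure D1:**
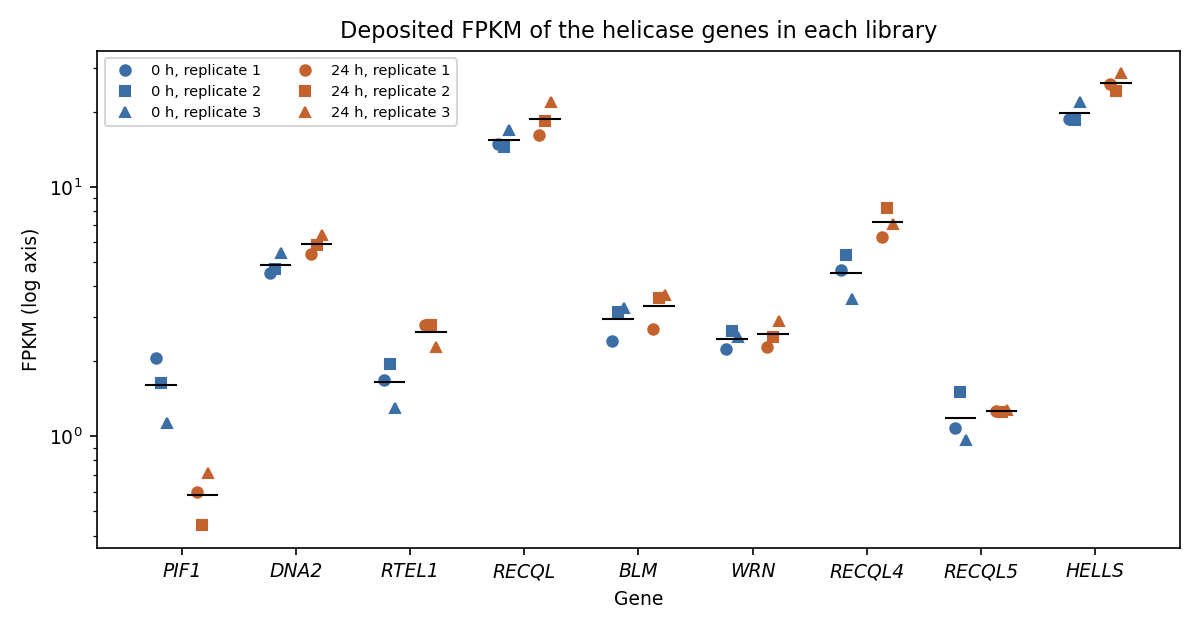
Deposited FPKM (log axis) of the 9 helicase genes, with 1 point per library, shapes for replicate numbers, colours for the time of cisplatin and a black line at the mean of 3. PIF1 lies between 1.13 and 2.06 at 0 h and between 0.44 and 0.71 at 24 h, and HELLS is the highest of the 9 at both times.

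PIF1 (ENSG00000140451.12, chromosome 15 from 64815632 to 64825668 in GENCODE 29 on GRCh38, minus strand), which unwinds DNA from 5′ to 3′, had 50, 40 and 31 counts in 0 h replicates 1, 2 and 3 and 16, 12 and 20 counts in 24 h replicates 1, 2 and 3. Scaled by TMM these were 9.97, 7.84 and 5.47 CPM at 0 h and 2.64, 1.74 and 2.74 CPM at 24 h. Every library at 24 h lay below every library at 0 h, with 0 h replicate 3 the lowest of its group and 24 h replicate 2 the lowest of all. The means were 7.76 ± 2.25 and 2.37 ± 0.553 CPM, a log2 fold change of -1.69 ± 0.30 (standard error of the edgeR model) with a 95% interval from -2.32 to -1.06. In bulk RNA such a value does not tell fewer cells with the RNA from less RNA per cell. All 9 genes passed the filter on low counts, and of them PIF1 alone was called. As the gene was proposed for this value, the share of all genes called lower (2.08%) is given beside it and nothing is read from that count. It was not called without 24 h replicate 2 (-1.51 ± 0.33) and was called in the other 5 fits that left out 1 library, where it ran from -1.90 to -1.48.

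**Figure D2:**
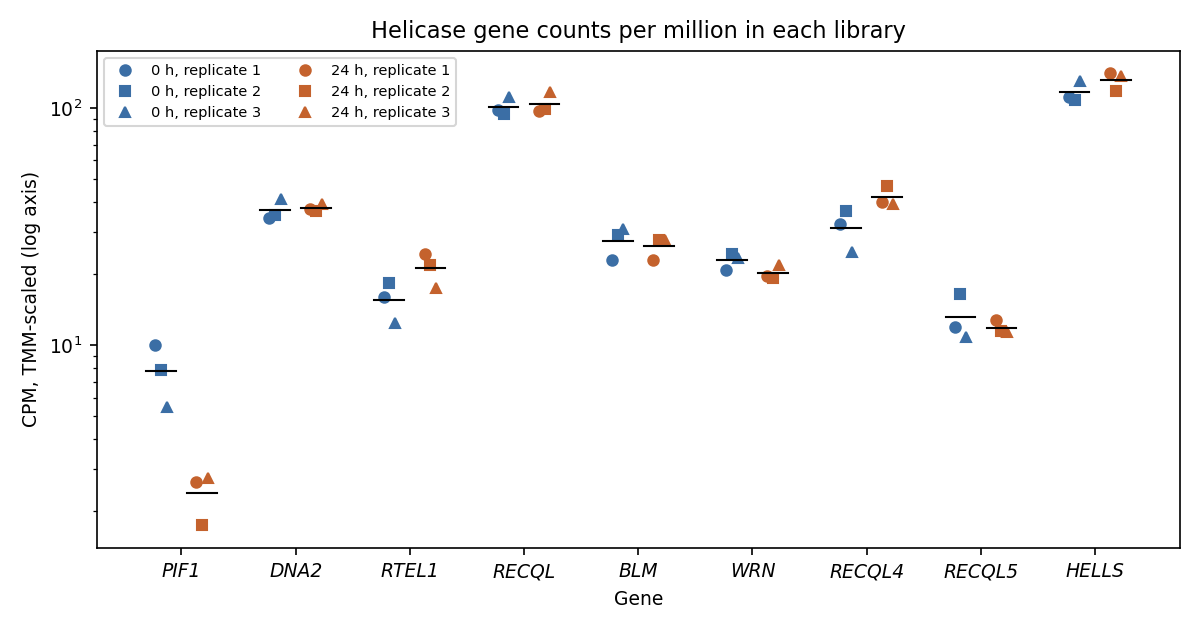
TMM-scaled CPM (log axis) of the 9 helicase genes, with 1 point per library, shapes for replicate numbers, colours for the time of cisplatin and a black line at the mean of 3. The groups are apart for PIF1 (5.47 CPM or more at 0 h, 2.74 or less at 24 h) and for RECQL4 (36.7 or less at 0 h, 39.5 or more at 24 h), and overlap for the other 7 genes.

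A ratio of counts of genes within a library does not depend on how the libraries are scaled. The count of PIF1 divided by that of RTEL1 was 0.625, 0.430 and 0.443 in the 0 h libraries and 0.109, 0.0800 and 0.158 in the 24 h libraries. Against RECQL4 it was 0.248 ± 0.0527 at 0 h and 0.0575 ± 0.0179 at 24 h, and against HELLS 0.0681 ± 0.0241 and 0.0179 ± 0.00286. The groups did not overlap for PIF1 against any of the other 8 genes. All 8 ratios hold the PIF1 count, for which the gene was put forward, so they restate that count and support nothing. The share of all gene pairs without overlap was not computed. By the lowest 0 h ratio divided by the highest 24 h ratio, the groups came nearest to each other for BLM, with 0.178 in 0 h replicate 3 against 0.115 in 24 h replicate 1.

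**Figure D3:**
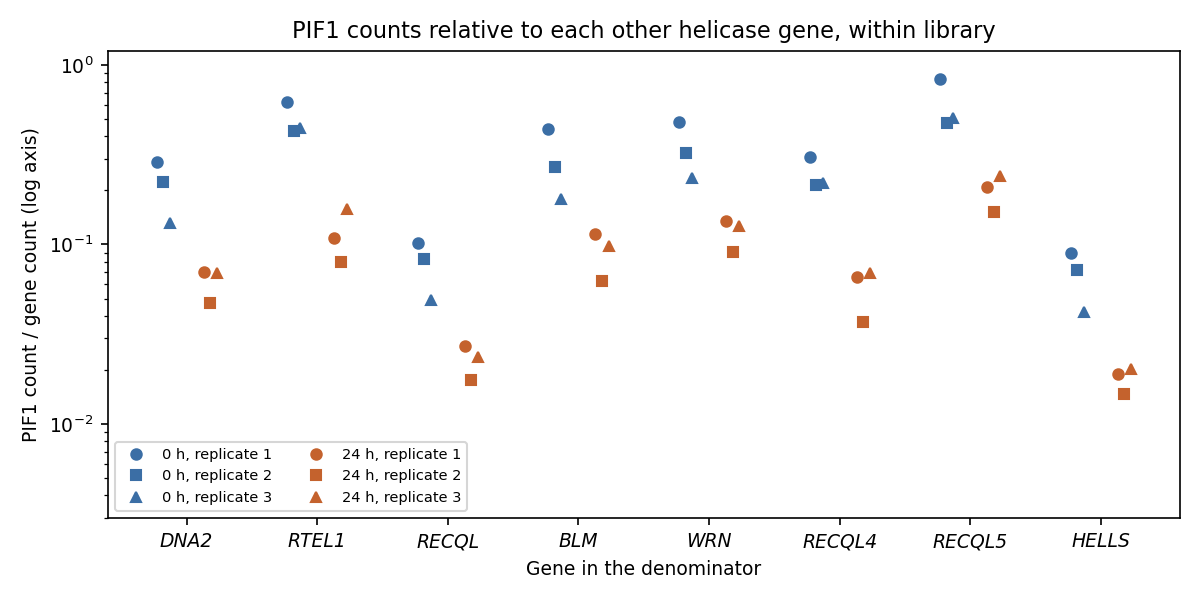
Count of PIF1 divided by the count of each of the other 8 helicase genes in the same library (log axis), with 1 point per library, shapes for replicate numbers and colours for the time of cisplatin. For each of the 8 genes all 24 h points lie below all 0 h points, as for RTEL1 with 0.430 or more at 0 h and 0.158 or less at 24 h.

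Among the enzymes that share PIF1's settings at telomeres and Okazaki fragments, RTEL1 and DNA2 differed from it in direction or size. RTEL1 (ENSG00000258366.7, chromosome 20 from 63657810 to 63696253, plus strand), which takes apart telomeric loops, had 70 to 93 counts in the 0 h libraries and 127 to 150 in those of 24 h. Replicates 1, 2 and 3 were at 15.9, 18.2 and 12.4 CPM before the drug and 24.2, 21.7 and 17.4 CPM after 24 h. Only 24 h replicate 3 fell within the 0 h range. The log2 fold change was 0.45 ± 0.18 with a 95% interval from 0.07 to 0.82, and it did not pass the threshold. The readthrough gene RTEL1-TNFRSF6B covers 70.2% of the exonic bases of RTEL1, so how reads were split between them is uncertain. It had 5 counts in each 0 h library and 10, 8 and 9 at 24 h, and RTEL1P1, a processed pseudogene, had 1 to 4 counts in each library. With the counts of the readthrough gene added to it, RTEL1 was still above 0 and not called.

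DNA2 (ENSG00000138346.14, chromosome 10 from 68414064 to 68472121, minus strand) was among the steadiest of the 9. Its 173 to 234 counts per library at 0 h and 227 to 287 after 24 h came to 34.5, 35.3 and 41.3 CPM and to 37.4, 36.9 and 39.4 CPM. All 3 libraries at 24 h lay inside the range of 0 h. The log2 fold change was 0.03 ± 0.12, with an interval from -0.22 to 0.29 that holds changes of that size in either direction.

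None of the 5 RecQ helicases was called in the main fit, which had TMM scaling, the filter on low counts and no replicate block. Also with TMM scaling, RECQL4 was called with no filter (0.49 ± 0.14) and with the block (0.44 ± 0.11). Those fits called 345 of 28565 and 739 of 13389 genes higher. RECQL4 (ENSG00000160957.12, chromosome 8 from 144511288 to 144517845, minus strand), which binds replication origins, had 140 to 187 counts per library at 0 h and 242 to 325 after 24 h. These were 32.3, 36.7 and 24.7 CPM at 0 h and 39.9, 47.0 and 39.5 CPM at 24 h, and every 24 h library lay above every 0 h library. The log2 fold change was 0.44 ± 0.14 and did not pass the threshold. With PIF1 this made 2 of 9 genes without overlap between the groups in TMM-scaled CPM, against 22.6% of all genes in either direction. In the deposited FPKM 4 of the 9 had no overlap, PIF1 below and RECQL4, RTEL1 and HELLS above, against 36.3% of all genes. Without 0 h replicate 3, the lowest of the group, the fold change was 0.29 ± 0.14.

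In the main fit BLM, WRN and RECQL5 gave values just below 0 and RECQL a value just above 0, and none of them passed. With scaling by the totals behind the deposited FPKM all 5 RecQ genes lay above 0. BLM (ENSG00000197299.10, chromosome 15 from 90717327 to 90816165), which dissolves double Holliday junctions with topoisomerase, had 22.7, 29.2 and 30.7 CPM at 0 h and 22.9, 27.6 and 27.8 at 24 h, with a log2 fold change of -0.08 ± 0.15. WRN (ENSG00000165392.9, chromosome 8 from 31033801 to 31173769), a helicase that is also an exonuclease, had 20.7, 24.3 and 23.3 CPM at 0 h and 19.5, 19.2 and 21.7 at 24 h, at -0.18 ± 0.14. For BLM replicate 1 was the low library of each group, whereas for WRN 2 of the 24 h libraries lay below all of 0 h.

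RECQL (ENSG00000004700.15, chromosome 12 from 21468911 to 21501669), the most abundant RecQ helicase here, had 98.1, 94.1 and 111 CPM at 0 h and 96.8, 99.3 and 117 at 24 h, at 0.04 ± 0.11. Replicate 3 was the highest library of each group. RECQL5 (ENSG00000108469.14, chromosome 17 from 75626845 to 75667189), which binds RNA polymerase II, had 12.0, 16.5 and 10.8 CPM at 0 h and 12.7, 11.4 and 11.4 at 24 h, at -0.14 ± 0.19. Its 0 h spread came mostly from replicate 2, without which the fold change was 0.05 ± 0.19. On the opposite strand PYROXD1 overlaps 41.5% of the exonic bases of RECQL and SMIM5 17.3% of those of RECQL5, and the use of strand in counting is not given in the sources used here. PYROXD1 had 61 to 115 counts per library against 480 to 850 for RECQL, and SMIM5 at most 3.

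Counts of RECQL4 per count of RTEL1 were close to each other in the 0 h libraries (2.01 ± 0.0125) and spread more widely at 24 h, at 1.65, 2.17 and 2.27 in replicates 1, 2 and 3, around a similar mean of 2.03 ± 0.334. Counts of DNA2 per count of HELLS were 0.318 ± 0.00745 at 0 h and 0.290 ± 0.0220 at 24 h. WRN divided by RECQL4 was 0.642, 0.663 and 0.943 at 0 h and 0.488, 0.409 and 0.549 at 24 h, with no overlap between the groups. RECQL5 divided by RTEL1 also had no overlap, at 0.842 ± 0.0809 and 0.568 ± 0.0741. The same held for RECQL4 divided by RECQL5 and for WRN divided by RECQL, RTEL1, DNA2 or HELLS. The groups overlapped for all the other pairs without PIF1. Of single genes 22.6% had no overlap in TMM-scaled CPM. The share of all gene pairs was not computed, so nothing is read from these ratios.

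HELLS (ENSG00000119969.14, chromosome 10 from 94501434 to 94613905, plus strand), the remodeller that opens packed DNA for methylation, had the most counts of the 9 in all 6 libraries. Its 553 to 736 counts per library at 0 h and 818 to 993 after 24 h came to 111, 108 and 130 CPM and to 140, 118 and 136 CPM. The groups overlapped through 0 h replicate 3 and 24 h replicate 2. The log2 fold change was 0.17 ± 0.11 with an interval from -0.05 to 0.40, and it did not pass. Its GENCODE 29 span begins upstream of the RefSeq start, so the printed sequence lies inside the span. AL138759.1, on the same strand, shares 4.32% of the exonic bases of HELLS and had 47 to 80 counts per library.

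The transcripts of the 9 genes lay at both ends of the range of GC content, and libraries differed in how GC-rich genes were counted. The longest transcripts of PIF1, RTEL1 and RECQL4 were 61.6%, 62.5% and 65.5% GC, above the upper quartile of all genes tested (55.9%), and that of RECQL5 was 52.2%. Those of RECQL, DNA2, HELLS, WRN and BLM were 37.3% to 41.2% GC, below the lower quartile (41.8%). Across 13316 genes, which are not independent replicates, Spearman's rho between GC content and the deviation of a library from the mean of all 6 was -0.50 in 0 h replicate 3 and -0.29 in 24 h replicate 3, and 0.27, 0.01, 0.26 and 0.34 in 0 h replicates 1 and 2 and 24 h replicates 1 and 2. The log2 CPM of 0 h replicate 3 minus the mean of the other 0 h libraries was -0.68 for PIF1, -0.48 for RECQL4, -0.46 for RTEL1 and -0.38 for RECQL5, and 0.05 to 0.25 for the 5 genes low in GC. The part of GC content in the 24 h against 0 h values was tested only by the correction that follows. With a GC correction of each library, chosen after seeing the data, PIF1 was at -1.74 ± 0.28 and was called, and RECQL4 was at 0.34 ± 0.11, RTEL1 at 0.37 ± 0.14 and HELLS at 0.22 ± 0.09, none of them called.

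**Figure D4:**
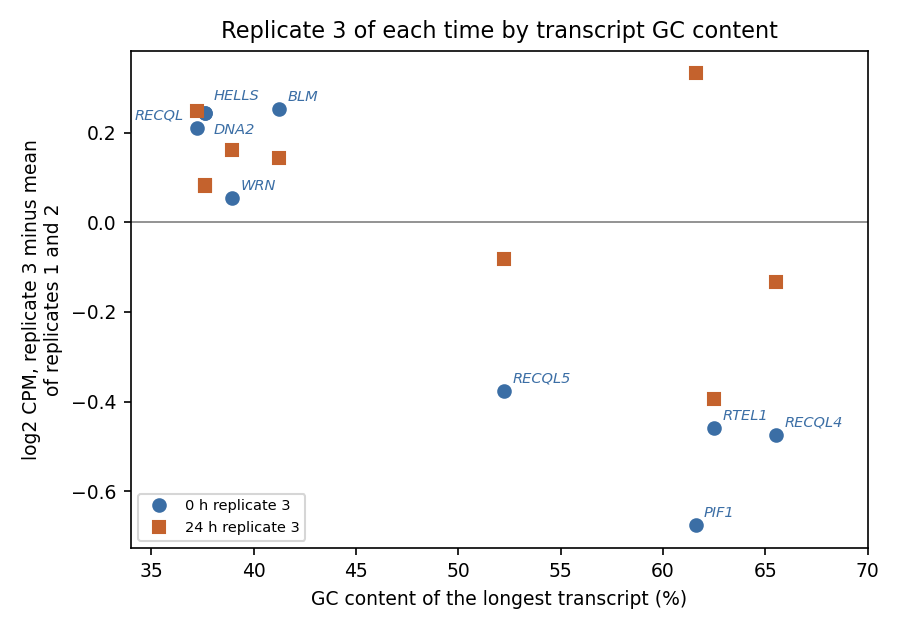
Difference in log2 CPM between replicate 3 and the mean of replicates 1 and 2 of the same time, for the 9 helicase genes against the GC content of the longest transcript, with circles for 0 h (labelled by gene) and squares for 24 h. At 0 h the 4 genes above 50% GC lie at -0.377 or lower and the 5 others lie above 0, while at 24 h PIF1 lies at 0.332.

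Scaling decided whether several of the values near 0 were above or below it. Scaling by the totals behind the deposited FPKM moved the median of all genes to 0.24 on the log2 scale, against -0.0016 with TMM. On that scale 2350 of 13473 genes were called higher and 192 lower, against 116 and 278 of 13389 with TMM. PIF1 was there at -1.46 ± 0.30, RECQL4 at 0.68 ± 0.16, RTEL1 at 0.68 ± 0.18 and HELLS at 0.41 ± 0.13, all called. BLM (0.17), WRN (0.06) and RECQL5 (0.09) changed sign. The median of the 9 genes was 0.03 with TMM and 0.27 with the FPKM totals, each close to the median of all genes on the same scale. PIF1 was below 0 in all 21 alternative fits and called in 19 of them. RECQL4, RTEL1 and HELLS were above 0 in all 21 and called in 5, 4 and 3. These fits reuse the same libraries, and adding the readthrough gene to RTEL1 left the PIF1 value unchanged. The counts of fits therefore describe the processing and support nothing.

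**Figure D5:**
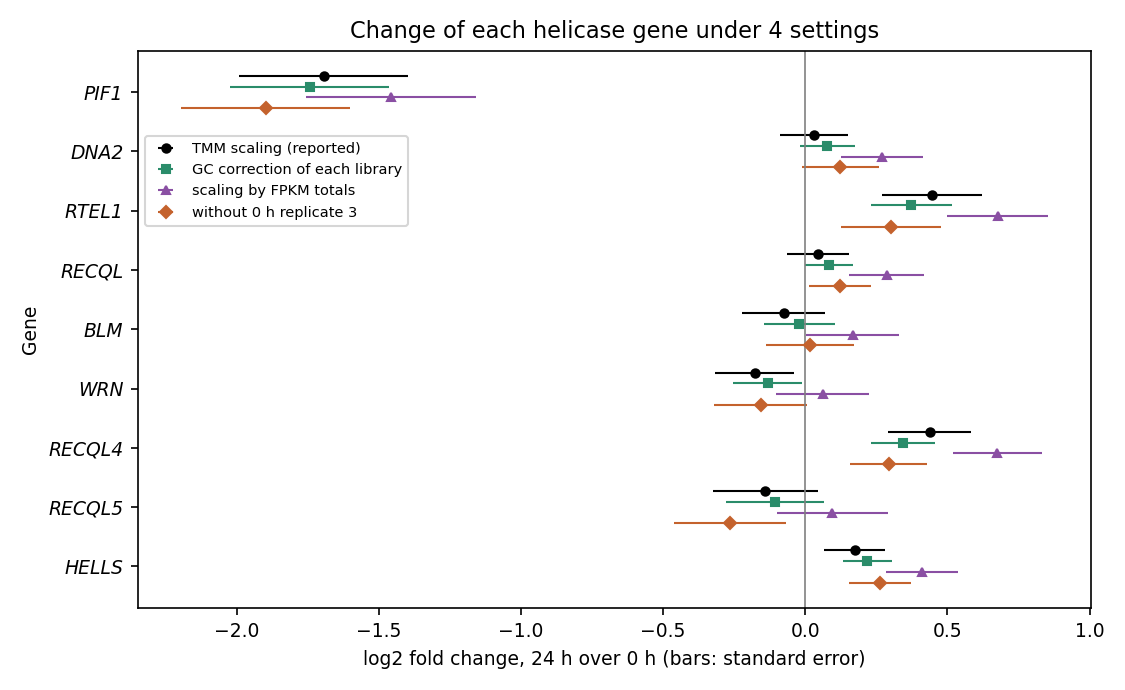
Log2 fold change of 24 h over 0 h for each of the 9 helicase genes (bars: standard error of the model, n = 3 per group, or 2 at 0 h where replicate 3 was left out) with TMM scaling, with a GC correction, with scaling by the FPKM totals and without 0 h replicate 3. PIF1 lies between -1.90 and -1.46 in the 4 fits, and RECQL4 between 0.29 and 0.68.

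Other genes of the pathways in which these helicases work were mostly not called in the main fit, as held for all genes. Of all genes tested edgeR called 0.866% higher and 2.08% lower, and DESeq2 0.957% and 1.63%. Nothing is therefore read from counts of 0 in these short lists. An unadjusted p under 0.05 was found for 18.1% of all genes tested, for comparison with the counts in each list here and below. Of all genes, 2350 of 13473 were higher with the FPKM totals, 1657 of 13389 by limma on log2(FPKM + 1) and 739 of 13389 with the block. Without 0 h replicate 3, 574 of 13727 were higher and 923 lower. Without 0 h replicate 1, 100 of 13628 were higher. Of 12 genes of the BLM complex and end resection, 0 were called by edgeR or DESeq2 and 1 had an unadjusted p under 0.05, RMI1, the scaffold of the BLM complex (0.48 ± 0.15). RPA3, of the single-strand binding complex, was at 0.34 ± 0.16. Of 21 other repair and fork-remodelling helicases and translocases tested, 0 were called by either tool and 4 had an unadjusted p under 0.05, 2 above 0 and 2 below it. They were the helicase HELB, which limits end resection (0.55 ± 0.17), RAD54L, of homologous recombination (0.42 ± 0.13), the fork-remodelling translocase ZRANB3 (-0.49 ± 0.18) and the alkylation repair helicase ASCC3 (-0.25 ± 0.10). The median was 0.18 in the first of these lists and -0.05 in the second, against -0.0016 for all genes. Without 0 h replicate 3, 3 genes of the first list were higher, and without 0 h replicate 1, 1 gene of the second. With the FPKM totals 6 genes of the first list and 2 of the second were higher, and by limma on FPKM 4 and 2.

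The replicative helicase and its loaders had 2 of 14 genes higher, CDT1, which loads the MCM ring (0.47 ± 0.11), and CDC45, which completes the active helicase (0.47 ± 0.12). This count was 0 without 0 h replicate 2 or without any 1 of the 24 h libraries, 4 without 0 h replicate 3, and 8 with the FPKM totals. Of 20 genes of Okazaki fragment processing 0 were called by edgeR or DESeq2, 8 had an unadjusted p under 0.05, and the median was 0.21. Its leading genes were PRIM1, the primase (0.51 ± 0.15), and RFC5, of the clamp loader (0.31 ± 0.10). DESeq2 called 3 genes of the replicative list, and 4 genes of the Okazaki list were higher without 0 h replicate 3. The number of higher Okazaki genes was 12 with the FPKM totals, 9 by limma on FPKM and 8 with the replicate number as a block. Of all genes 2350, 1657 (pseudocount 1) and 739 were higher in these fits, against 116 in the main fit.

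Of 15 telomere and telomerase genes tested 0 were called by either tool and 1 had an unadjusted p under 0.05, TINF2, which bridges shelterin (0.54 ± 0.15), and NHP2, of the telomerase particle, was at 0.23 ± 0.12. Of 12 genes of mitochondrial DNA maintenance 0 were called by either tool and 1 had an unadjusted p under 0.05, PRIMPOL (0.39 ± 0.19), with the mitochondrial RNA polymerase POLRMT at 0.24 ± 0.15. Of 8 partners of HELLS and DNA methylation genes 0 were called by either tool and 2 had an unadjusted p under 0.05, UHRF1, which reads half-methylated DNA (0.39 ± 0.12), and CDCA7, the activator of HELLS (0.33 ± 0.15). Of 16 other SNF2-type remodellers tested 1 was lower, CHD2 (-0.59 ± 0.10), which was not called without 24 h replicate 2, and CHD6 was at -0.24 ± 0.12. Without 0 h replicate 3, 3 of the remodellers were lower, and leaving out either 0 h replicate 1 or 0 h replicate 3 gave 1 higher gene each among the telomere genes and the HELLS partners. With the FPKM totals 6 telomere genes, 3 HELLS partners and 1 gene of mitochondrial DNA were higher, and by limma on FPKM 3, 3 and 1.

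The cell-cycle genes set beside the helicases went different ways. Of 12 genes of G2 and mitosis 9 were lower and 0 higher, with a median of -0.52, led by the kinesin KIF20A (-1.20 ± 0.11) and the kinase AURKA (-1.08 ± 0.11), both called in all 6 fits without 1 library. The number of lower genes was 5 if 0 h replicate 2 or either of the first 2 libraries at 24 h was left out, and 5 with the FPKM totals, where 1 was higher. Of 10 genes of S phase 4 were higher and 0 lower, with a median of 0.36, led by TK1, thymidine kinase (0.64 ± 0.10), and RRM2, of ribonucleotide reductase (0.59 ± 0.10). Of S phase genes 1 was higher when 0 h replicate 2 was left out, 2 when 24 h replicate 2 was, and 9 with the FPKM totals. Of all genes 24 of 13617, 21 of 13687 and 2350 of 13473 were higher in these fits. Both lists were chosen with their earlier results known. Their part in the values of PIF1 and of the other helicases was not tested.

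The letters searched were also found before genes of the cell-cycle and replication lists. Of the 11 mitotic genes with a RefSeq window, 10 held CCAAT and 1, CDK1, held E2F letters. CHR letters were held by 7 of them (BUB1, CCNB2, CDC20, CDK1, CENPF, PLK1 and TOP2A). Of 11 genes of the replicative list 9 held E2F letters, 1 held CHR letters and 8 held CCAAT. Of 8 S phase genes with a window 6 held CCAAT, 3 held E2F letters and 1 held CHR letters, so CCAAT was common in these 3 lists. Of 19 Okazaki genes 9 held CCAAT, 5 held E2F letters and 0 held CHR letters. Of all windows 16.4% held CHR letters, 34.6% CCAAT and 3.31% E2F letters. Some genes had more than 1 window, so counts of genes and shares of windows are unlike measures. A part of these letters in the changes was not tested. Of the mitotic genes with CHR letters, CCNB2, CDC20, CENPF, PLK1 and TOP2A were called lower. BUB1 and CDK1, also with CHR letters, were not called (-0.19 ± 0.10 and -0.15 ± 0.14). KIF20A, the leading gene, held CCAAT but no CHR letters in its window, as did CCNB1, called lower, and AURKB, not called.

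The genes whose log2 CPM followed that of PIF1 most closely over the 6 libraries were GOT1, the cytosolic aspartate aminotransferase (Pearson's r = 0.996), the kinase ABL2 (0.995), MBD5 (0.994), the chloride transporter CLCN5 (0.994) and the zinc finger gene ZNF432 (0.993). They were the highest of 11241 genes searched, each with at least 5 CPM on average, of which 409 had r above 0.9. As PIF1 was put forward for its fall at 24 h, r over these 6 libraries partly restates that fall and supports nothing. The fold changes of the 5 named genes were smaller than that of PIF1, from -0.78 ± 0.16 for MBD5 to -0.27 ± 0.10 for ABL2. ABL2 and CLCN5 were not called.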

How the data were processed

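RNA-seq was analysed in 6 libraries. The deposited counts are whole numbers of reads per gene for 28565 genes, with 0 rows lacking a gene name, and the deposited FPKM values cover 28561 genes and are written to hundredths. Per the labels' protocols, rRNA was depleted and directional paired-end libraries were made. The submitters' processing notes name TopHat2, bcl2fastq, edgeR and the build GRCh38. The sources used here give no versions, read counter, annotation or strand setting.

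The 2 times were compared with glmQLFit and glmQLFTest of edgeR 4.0.16 in R 4.3.3, after TMM scaling and filterByExpr and without covariates, with Benjamini-Hochberg adjustment over 13389 genes and a threshold of 0.05. The common biological coefficient of variation was 0.103. The test was run on simulated data first. Errors of fold changes are the log2 fold change divided by the square root of F. Gene positions and transcript GC content were taken from GENCODE 29, with GC for 99.4% of the genes tested.

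The 9 genes and all lists were chosen with earlier results of these data known. Named genes were the 9, the 2 of each list with the smallest p, the 5 most like PIF1 and genes overlapping a member. Others are named as examples, chosen after their values were seen. Whether libraries of 1 group are from separate cultures is not stated, and the series text speaks of 2 replicates, so p-values measure only the spread between these libraries. Reads were counted without molecular identifiers. Alternatives were other scalings and filters, DESeq2 1.42.0, a robust dispersion fit, limma 3.58.1 on log2(FPKM + 1) or log2(FPKM + 0.1), a replicate block, leaving out libraries, and, chosen after seeing the data, a GC correction and adding the readthrough gene to RTEL1.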

Additional observations from a re-analysis of the deposited data

How the results depend on the processing

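Counts of called genes (116 higher, 278 lower) moved by over 1.5 times in many fits. They were 2350 higher with the FPKM totals, 345 higher with no filter on low counts, 344 higher with the GC correction, 1657 and 138 by limma on log2(FPKM + 1), 1632 and 136 on log2(FPKM + 0.1), 22 and 10 on log2(FPKM + 1) with no filter, and 306 and 539 without both libraries numbered 3. Leaving out 1 library gave 21 to 574 higher and 92 to 923 lower. Over the pathway lists together (6 higher, 10 lower) the counts were 47 and 6 with the FPKM totals, 15 higher with no filter, 16 higher with the GC correction, 37 and 5 by limma with either pseudocount, 2 and 1 by limma with no filter and 12 higher without both libraries numbered 3, and 1 to 18 higher and 5 to 11 lower without 1 library. Rises made up 29.4% of calls in the main fit, 92.4% with the FPKM totals, 46.6% with no filter, 46.1% with the GC correction and 43.5% with the block.

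The replicate number as a block gave 739 higher and 959 lower, 23 higher in the pathway lists, and called RECQL4 (0.44) and RTEL1 (0.45). Same-numbered libraries did not all deviate together (correlations 0.23, -0.02 and 0.41). Among the 24 h libraries, 0 h replicates 1 and 3 correlated best with that of the same number. For 0 h replicate 2 the best was 24 h replicate 1 (0.22). Whether same-numbered libraries share more than a number was not tested.

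PIF1 was not called by limma with no filter (-0.71). RECQL4 was called with the FPKM totals (0.68), with no filter (0.49) and by limma (0.58 and 0.67 with the pseudocounts 1 and 0.1). RTEL1 was called with the FPKM totals (0.68) and by limma (0.46 and 0.66), and HELLS likewise (0.41, then 0.39 and 0.41). BLM turned above 0 with the FPKM totals (0.17) and by limma (0.13 and 0.16, and 0.13 with no filter), as did WRN (0.062, then 0.041, 0.054 and 0.041) and RECQL5 (0.095, then 0.058, 0.11 and 0.058). Without 1 library, fold changes ran from -1.90 to -1.48 for PIF1, -0.19 to 0.016 for BLM, -0.24 to -0.13 for WRN, -0.052 to 0.12 for RECQL, 0.29 to 0.56 for RECQL4, -0.26 to 0.054 for RECQL5, 0.30 to 0.57 for RTEL1, -0.016 to 0.12 for DNA2 and 0.12 to 0.26 for HELLS. The cause was not tested.

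The library farthest from the mean FPKM of its group, which among 3 is always at least 1 SD away, was at these FPKM values: PIF1 (1.13 and 0.44 at 0 h and 24 h), BLM (2.42 and 2.68), WRN (2.23 and 2.90), RECQL (16.9 and 22.0), RECQL4 (3.56 and 8.22), RECQL5 (1.51 and 1.28), RTEL1 (1.30 and 2.29), DNA2 (5.41 and 6.41) and HELLS (21.9 and 28.5). With 12 to 50 counts per library, PIF1 carries the most counting error of the 9.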
